A study of Mus musculus with 5 samples.

Results

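The genes of the cytosolic ribosomal proteins were read in mouse epidermis after topical forskolin, topical cAMP or no treatment. They were taken by annotation and name alone: genes annotated as protein-coding and called Rpl or Rps with a number, together with Rplp0, Rplp1, Rplp2 and Rpsa, without the Rps6k kinases and without names holding -ps. This gave 85 of the 21667 genes in the table, and they are called members here. Of them, 43 code for proteins of the large subunit, 30 for the small subunit and 3 for the stalk of the large subunit, which makes 76 subunit and stalk members. Another 7 are paralogs or second copies, and 2 carry the name without being ribosomal proteins: Rpl7l1, an assembly factor, and Rps19bp1, which binds the product of Rps19.

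All libraries came from the whole epidermis of wild-type male C57BL/6 mice at postnatal day 49, shaved on the back. Forskolin, which switches on adenylyl cyclase, was applied at 10 µM in 2 libraries, and cAMP, the messenger that this enzyme makes, at 1.325 mM in 2 libraries, each 3 times within 5 days in DMSO and a lotion. The fifth library is labelled untreated and is called the control (lotion on this animal is not mentioned). The stated aim concerns Creb, a transcription factor activated through cAMP, and the onset of hair growth. No label ties the libraries of a group to separate mice. The p-values therefore reflect library-to-library spread, possibly technical, and the single control has no spread of its own.

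Each ribosome carries a single copy of nearly every member's product, with the acidic stalk proteins as the known exception, and the proteins are made in matching amounts. Their mRNAs begin with a run of pyrimidines (the TOP motif), through which mTOR and Larp1 tie their translation to growth. Their genes have also seeded many processed pseudogenes, intron-free copies of the mRNA elsewhere in the genome, to which a short read may match as well as to the gene.

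The libraries differed in make-up before any member is considered. Nuclear genes other than pseudogenes and rRNA, called nuclear genes below, held 7.9% of the listed values in the control and 25.9% to 38.0% after treatment, while mitochondrial genes held 69.3% and 43.1% to 58.0%. The median gene was therefore 1.69 log2 units higher with forskolin and 1.66 higher with cAMP than in the control. For this reason changes against the control are given both as deposited and after scaling by median-of-ratios size factors, which brought these medians to 0.18 and 0.16. Every marker of basal and spinous keratinocytes was above 0.05 CPM (reads scaled to library size) in each library. The 8 basal markers summed to 1.94% of the nuclear value in the control and 1.1% to 2.14% after treatment, and the 5 spinous markers to 2.57% and 0.512% to 1.02%. The 8 sebaceous gland markers summed to 0.229% in the control, where Pparg was under 0.05 CPM, and 0.521% to 2.4% in the treated libraries. The 7 dermal fibroblast markers ran from 0.00769% to 0.255%, with Pdgfra under 0.05 CPM in the control and in cAMP 2.

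For many members most of the listed value lay on near-identical copies, so sequences are shown first. Rps6 codes for a small subunit protein that S6 kinases phosphorylate, and Rps6-ps4, a processed pseudogene on chromosome 2 (75191073 to 75191822), matches its whole coding sequence of 747 bases without a difference. Rpl32, a large subunit gene on chromosome 6, and its copy Gm7266 on chromosome 1 (144312032 to 144312436) differ at 26 of 405 coding bases. The first 90 coding bases of each (GENCODE M21, GRCm38) are shown, with the copy's differences in capitals:
Rps6: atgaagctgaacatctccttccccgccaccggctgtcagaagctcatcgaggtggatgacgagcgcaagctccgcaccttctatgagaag
Rps6-ps4: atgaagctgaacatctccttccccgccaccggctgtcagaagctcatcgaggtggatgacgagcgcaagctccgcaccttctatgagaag
Rpl32: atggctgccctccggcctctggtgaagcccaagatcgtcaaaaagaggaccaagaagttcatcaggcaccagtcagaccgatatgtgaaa
Gm7266: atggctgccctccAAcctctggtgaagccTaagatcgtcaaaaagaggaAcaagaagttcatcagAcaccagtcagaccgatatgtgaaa

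In these 90 bases Gm7266 carries 5 substitutions against Rpl32, counted from the first coding base: G14A, G15A, C30T, C50A and G66A. At Rps6, with its identical copy, the table listed 16.4 CPM in the control, 38.5 and 16.3 with forskolin and 41.7 and 42.8 with cAMP. At Rps6-ps4 it listed 172.9 CPM in the control, 466.3 and 314.0 with forskolin and 716.0 and 371.6 with cAMP. The gene thus held 7.09% of the joint value of Rps6 and its 3 copies. Rpl32, whose 4 copies all differ from it, held 93.4% of its joint value.

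The same held across the members. A search for listed genes with at least 90% identity to a member found 365 copies for 75 members, 334 of them pseudogenes. In each library the copies held more than the members did. The members summed to 3319 CPM in the control, 8209 and 6615 CPM with forskolin and 13057 and 6501 CPM with cAMP. Their copies summed to 6400 CPM in the control, 15399 and 12110 CPM with forskolin and 24987 and 12166 CPM with cAMP. Members held 34.1% of the joint value in the control and 34.3% to 35.3% after treatment as a sum. Single members shifted more: the own gene's part was 0.0711% in the control and 2.40% to 5.87% after treatment for Rpl11, and 1.62% and 8.70% to 10.8% for Rpl3. For the median member 96.9% of the copies' value lay on a single copy. At 56 members the own gene held under 50% of the joint value, and at 30 it held under 10%.

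The median share kept by the gene rose with the number of differences to the nearest copy, but the ranges overlapped widely. For 17 subunit and stalk members a copy had the same coding sequence. Their own genes kept a median of 4.13% of the joint value (range 0.283% to 60.1%). For 35 members with 1 to 5 differences to the nearest copy, gap bases included, the median was 10.1% (0.0296% to 69.7%). For 19 members with 6 or more it was 66.0% (15.3% to 96.9%). The joint value did not follow this order: the median family of gene and copies stood at 287, 263 and 281 CPM in these 3 groups, and at 264 CPM for the 5 members with no listed copy. How reads with several matches were placed is not given in the sources used here.

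**Figure D1:**
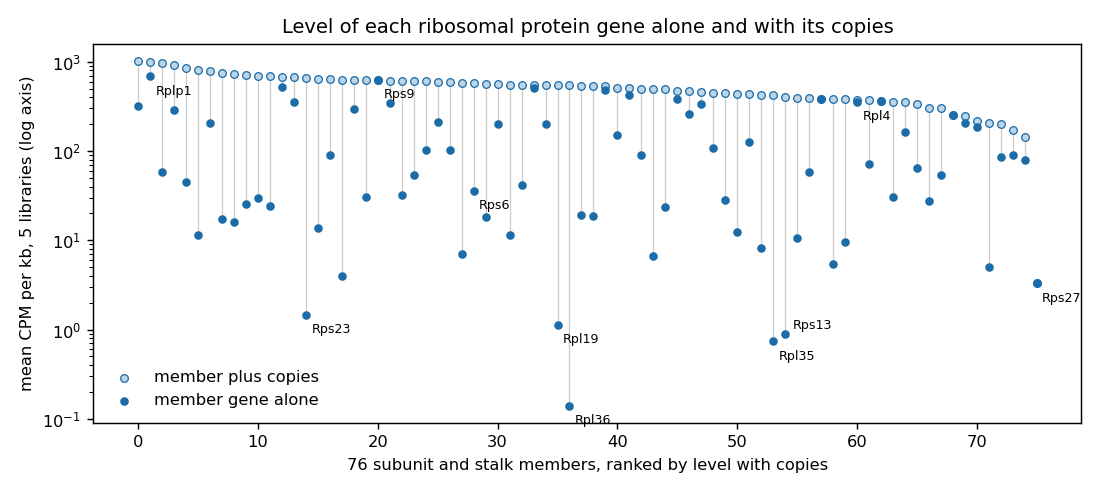
Mean CPM per kb of transcript over 5 libraries (log axis) for 76 subunit and stalk members, ranked by the level of the gene with its copies; filled points are the gene alone, open points the gene with its copies. Genes alone range from 0.141 to 684 CPM per kb, and with copies all but Rps27 lie between 144 and 1010.

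Levels between genes were compared per length, as CPM per kb of transcript averaged over the 5 libraries. The 76 subunit and stalk members had a median level of 58.1 CPM per kb at their own genes, with a range of 0.141 to 684 and an SD of 2.62 log2 units between genes. With copies added the median level was 539 CPM per kb. Without Rps27, the SD between the other 75 members was 2.59 log2 units at the genes alone and 0.57 with copies. The plot of levels per kb shows the wide scatter of the genes alone under the narrow band of the sums.

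Among subunit and stalk members the highest level per length at the gene itself belonged to Rplp1 at 684 CPM per kb, followed by Rps9 at 621, Rplp0 at 518 and Rpl32 at 507. Rps9 has no listed copy, and its product belongs to the small subunit. The lowest levels per length were those of Rpl36 (0.141 CPM per kb), Rpl35 (0.736), Rps13 (0.887), Rpl19 (1.12) and Rps23 (1.46). With their copies these same genes reached 543, 424, 407, 548 and 665 CPM per kb. A near-zero entry at any of these 5 genes therefore stood beside a copy family of ordinary level.

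Rps27 was the one subunit member whose level stayed low, at 3.29 CPM per kb, and its match, Rps27rt, is itself a member. Rps27rt on chromosome 9 (114982371 to 114982740) is annotated as protein-coding, with a coding sequence of 252 bases. For Rps27 the listed protein_coding transcript gave a coding sequence of 156 bases, and Rps27rt contains these unchanged. The 3 other listed rows of Rps27 are retained-intron transcripts, so no longer coding sequence of Rps27 was compared. Rps27l is a paralog on chromosome 9 (66946086 to 66949516), and 21 of the 90 bases shown differ between it and Rps27. The first 90 coding bases of the 3 genes follow, with differences from Rps27 in capitals:
Rps27: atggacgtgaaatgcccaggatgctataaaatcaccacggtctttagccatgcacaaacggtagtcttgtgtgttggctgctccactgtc
Rps27rt: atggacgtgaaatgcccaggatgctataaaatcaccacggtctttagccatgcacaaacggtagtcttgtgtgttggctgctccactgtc
Rps27l: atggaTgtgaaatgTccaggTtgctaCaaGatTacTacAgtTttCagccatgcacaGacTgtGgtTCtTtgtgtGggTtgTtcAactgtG

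Rps27rt was listed at 117.5 CPM in the control, 309.4 and 162.9 CPM with forskolin and 417.7 and 220.3 CPM with cAMP. Rps27 itself was listed near 0 in the control and at 0.994 to 5.27 CPM in the treated libraries. Rps27l, which has the diverged sequence, was at 10.2 CPM in the control, 42.9 and 15.1 CPM with forskolin and 44.8 and 27.7 CPM with cAMP.

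Relative to other nuclear transcripts, the members as a sum were highest in the control and lowest in forskolin 2, while forskolin 1 lay above cAMP 2. They held 4.61% of the nuclear value in the control, 2.83% and 2.36% with forskolin and 3.63% and 2.69% with cAMP, so the control stood above all 4 treated libraries and the treated groups overlapped. Members and copies together, set against the same nuclear value, gave 13.5% in the control, 8.14% and 6.69% with forskolin and 10.6% and 7.73% with cAMP, in the same order. Most copies are pseudogenes, which the nuclear value leaves out, so these are ratios and not shares. Of 79 members that passed the filter of at least 1 CPM in at least 2 libraries, 42 (53.2%) had their highest nuclear share in the control, against 25.3% of all tested nuclear genes, and 14 (17.7%) had their lowest there, against 44.1%. With bulk RNA, fewer cells rich in these transcripts and less of them per cell cannot be told apart. The spinous, sebaceous and mitochondrial shares given above differed between the control and all treated libraries as well. So did those of 7 cornified layer markers (0.171% in the control, 0.00844% to 0.0227% after treatment, Lce1m under 0.05 CPM in cAMP 2), 6 cycling markers (0.028% and 0.0601% to 0.0787%) and the dermal fibroblast markers (0.255% and 0.00769% to 0.126%). The same held for 6 skeletal muscle markers (0.0922% and 0.0271% to 0.0668%). It also held for 4 endothelium markers (0.00153% and 0.0005% to 0.00143%), 3 of them under 0.05 CPM in the control. The part of these lists in the members' result was not tested.

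**Figure D2:**
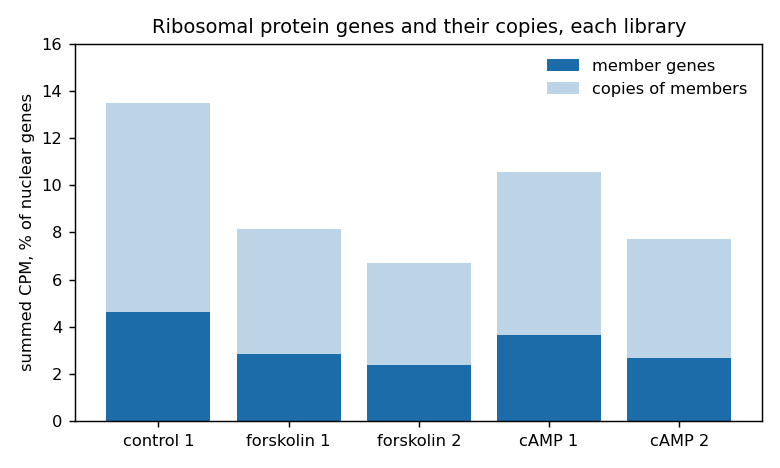
Summed CPM of the 85 members (dark) with that of their 365 copies stacked on top (light), as a percentage of the nuclear value, 1 bar per library. The control stands highest at 4.61% for members, and the copies exceed the members in every library. Most copies are pseudogenes, which the nuclear value leaves out, so the light bars are ratios to it.

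The 3 classes kept their proportions. Stalk genes held 13.6% of the members' sum in the control and 12.6% to 13.9% after treatment. Large subunit genes held 36.1% in the control and 36.7% to 39.0% after treatment, and small subunit genes 45.4% and 43.4% to 45.1%.

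Forskolin against the control sets the libraries given an activator of adenylyl cyclase beside the untreated one. The libraries hold no measure of cAMP inside the cells, and the part of DMSO and lotion was not tested. As deposited, limma called 31 of 79 tested members higher (39.2%) and 0 lower, in a comparison where 66.3% of 13764 genes were called higher and 0.341% lower. At an unadjusted p under 0.05, 35 members differed. The share of all genes at this cut is not given, here or below, so such counts cannot be set against a background. The median log2 change of the 79 members was 1.14, below the 1.69 of all genes. With median-of-ratios scaling 6 members were higher (7.59%, against 14.4% of all genes) and 21 were lower (26.6%, against 7.39%), and the median log2 change was -0.90. With copies added and the same scaling, limma called 22 of 83 tested members lower (26.5%, against 7.46%) and 1 higher (1.2%, against 14.7%), with a median of -0.98. As deposited and with copies, 21 were higher (25.3%, against 67.1%) and 0 lower (0.353% of all genes).

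Leaving out forskolin 1 brought the members' as-deposited median change with forskolin to 0.93, where that of all genes was 1.67. Without forskolin 2 these medians were 1.33 and 1.79. With median-of-ratios scaling they were -1.10 and 0.19 without forskolin 1, and -0.76 and 0.16 without forskolin 2. In the cAMP comparison described next, the as-deposited medians of members and all genes were 1.01 and 1.48 without cAMP 1. Without cAMP 2 they were 1.98 and 1.95. After scaling they were -0.67 and 0.15 without cAMP 1, and -0.28 and 0.17 without cAMP 2. The number of members called also changed with the library left out, as did that of all genes.

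cAMP against the control puts the messenger itself beside the same library. As deposited, 51 of 79 members were called higher (64.6%) and 0 lower, against 65.1% and 0.436% of all genes, so the share was near that of all genes. At an unadjusted p under 0.05, 57 members differed. The median log2 change was 1.5 for members and 1.66 for all genes. With median-of-ratios scaling 7 members were higher (8.86%, against 14.8%) and 8 lower (10.1%, against 7.78%), with a median of -0.46. With copies added, 0 of 83 members were lower by limma, where 7.97% of all genes were, and 1 was higher (15.3% of all genes), while 19 had an unadjusted p under 0.05. The median was then -0.63. As deposited and with copies, 61 of 83 were higher (73.5%, against 65.7%) and 0 lower (0.455% of all genes). Both comparisons rest on the same control library.

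The stalk is the flexible arm of the large subunit that recruits elongation factors. None of its 3 members was called by limma after scaling (2 had an unadjusted p under 0.05 with forskolin and 1 with cAMP). Of all genes, 14.4% were called higher and 7.39% lower with forskolin, and 14.8% and 7.78% with cAMP. Rplp0, which anchors the stalk, was at 276 CPM in the control, 568 and 482 CPM with forskolin and 726 and 404 CPM with cAMP. Every treated library was above the control as deposited. Yet the log2 changes of 0.92 ± 0.65 with forskolin (SE; limma adjusted p = 0.189) and 0.97 ± 0.65 with cAMP (0.167) lay below those of the median gene. With median-of-ratios scaling they were -1.18 (adjusted p = 0.0591) and -1.12 (0.0716).

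Rplp1, an acidic stalk protein gene, was at 132 CPM in the control, 314 and 272 CPM with forskolin and 674 and 314 CPM with cAMP. The cAMP 1 library stood apart from the other 3 treated libraries. Rplp1 rose with cAMP by 1.80 ± 0.63 log2 units as deposited (limma adjusted p = 0.00918), with a scaled change of -0.30 (0.635). Its partner Rplp2, which has no listed copy, was at 43.8 CPM in the control, 154 and 165 CPM with forskolin and 339 and 119 CPM with cAMP. Rplp2 rose in both comparisons as deposited, by 1.84 ± 0.60 with forskolin (limma adjusted p = 0.00536) and 2.17 ± 0.60 with cAMP (0.00113). Its scaled changes of -0.24 (0.703) and 0.10 (0.89) did not pass.

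In the large subunit 18 of 40 tested members were called higher with forskolin and 24 with cAMP as deposited, or 45% and 60% against 66.3% and 65.1% of all genes. With median-of-ratios scaling 5 were higher (12.5%, against 14.4%) and 11 lower (27.5%, against 7.39%) with forskolin. With cAMP 5 were higher (12.5%, against 14.8%) and 6 lower (15%, against 7.78%). With copies added to that scaling, 12 of 43 were lower with forskolin (27.9%, against 7.46%) and 0 with cAMP (7.97% of all genes). No large subunit member was then higher by limma in either comparison, where 14.7% and 15.3% of all genes were. Rpl4, which lines the exit tunnel for the growing chain, had the highest mean value of all members. It was at 265 CPM in the control, 593 and 508 CPM with forskolin and 807 and 533 CPM with cAMP. It keeps 95.3% of its joint value. Its scaled log2 changes were -1.05 ± 0.44 with forskolin (limma adjusted p = 0.0894) and -0.79 ± 0.44 with cAMP (0.201).

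Rpl5 and Rpl11, whose products bind Mdm2 together with 5S rRNA, moved apart at their own genes. Rpl11 was at 0.0815 CPM in the control, 7.29 and 7.03 CPM with forskolin and 23.1 and 15.0 CPM with cAMP. It rose by 2.92 ± 0.59 log2 units with forskolin and 4.18 ± 0.59 with cAMP as deposited (limma adjusted p = 1.17e-05 and 6.17e-10), and by 2.31 (0.00152) and 3.55 (3.3e-05) after scaling. Its 2 copies were at 114.5 CPM in the control and 237.7 to 504.5 CPM after treatment, and with them the scaled changes of Rpl11 were -0.87 (0.134) and -0.42 (0.476).

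Rpl5 was at 11.2 CPM in the control, 25.4 and 13.6 CPM with forskolin and 19.1 and 5.14 CPM with cAMP, so that only cAMP 2 lay below the control. As deposited its log2 changes were 0.68 (limma adjusted p = 0.28) and -0.14 (0.828). With scaling it was -1.32 with forskolin (0.0583) and fell by 2.12 with cAMP (0.00484). With its copy added the scaled changes of Rpl5 were -0.96 (0.122) and -0.70 (0.259), close to those of Rpl11 with copies.

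Rpl3, a core protein near the peptidyl transferase centre, was at 3.05 CPM in the control, 44.8 and 36.0 CPM with forskolin and 75.2 and 36.7 CPM with cAMP. It rose by 3.34 ± 0.57 and 3.73 ± 0.57 log2 units as deposited (limma adjusted p = 3.71e-07 and 1.54e-08) and by 1.52 (0.0106) and 1.90 (0.00209) after scaling. Rpl3-ps1, its main copy on the X chromosome, was at 184.7 CPM in the control and 343.9 to 621.5 CPM after treatment, and with the 5 copies added the scaled changes of Rpl3 were -0.87 (0.143) and -0.64 (0.287).

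In the small subunit 9 of 29 tested members were called higher with forskolin and 20 with cAMP as deposited, or 31% and 69% against 66.3% and 65.1% of all genes. With median-of-ratios scaling limma called 0 higher (14.4% of all genes) and 9 lower (31%, against 7.39%) with forskolin, and 17 had an unadjusted p under 0.05 in either direction. With cAMP 1 was higher (3.45%, against 14.8%) and 2 were lower (6.9%, against 7.78%). Rps3a1, Rps4x, Rps6, Rps23 and Rps24 were among the lower ones with forskolin. With copies added to that scaling, 9 of 30 were lower with forskolin (30%, against 7.46%) and 0 with cAMP (7.97% of all genes).

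Rps9 was at 151 CPM in the control, 400 and 316 CPM with forskolin and 633 and 281 CPM with cAMP. It rose with cAMP as deposited (1.47 ± 0.63 log2 units; limma adjusted p = 0.0329), and its scaled changes were -0.88 (0.149) with forskolin and -0.62 (0.308) with cAMP. Rps3, which sits at the mRNA entry channel, was at 136 CPM in the control, 337 and 260 CPM with forskolin and 552 and 260 CPM with cAMP. It has no listed copy, and its scaled changes of -0.98 (0.0988) and -0.62 (0.295) were much like those of Rps9. Rps6, with the CPM values given beside its sequence, fell by 1.44 with forskolin after scaling (limma adjusted p = 0.0287) and had a scaled change of -0.72 (0.255) with cAMP. With copies the scaled changes of Rps6 were -1.01 (0.1) and -0.54 (0.386). As deposited the change of Rps6 with forskolin was 0.59 (0.348), and -0.01 without forskolin 1.

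Rps23, whose product lies at the decoding centre, was at 1.43 CPM in the control, 1.22 and 0.967 CPM with forskolin and 1.93 and 1.29 CPM with cAMP. Its as-deposited changes were -0.22 (limma adjusted p = 0.77) and 0.09 (0.9), and it fell by 1.61 with forskolin after scaling (0.0309). Its copy Rps23-ps1, with no substitution against it, was at 124.9 CPM in the control and 240.1 to 493.4 CPM after treatment. With copies the scaled changes of Rps23 were -1.05 (0.0725) and -0.66 (0.25).

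A set of 8 subunit and stalk members kept at least 90% of their joint value at their own gene, Rps27 set aside, among them Rpl4, Rpl8, Rpl32, Rplp2, Rps3, Rps9 and Rps15. They were singled out after their values were seen and are given as a description. Their scaled log2 changes had a median of -0.89 with forskolin (range -1.05 to -0.24) and -0.62 with cAMP (range -0.79 to 0.10). There were 0 calls by limma in either direction, and 4 and 0 had an unadjusted p under 0.05. Of all genes, 14.4% were called higher and 7.39% lower with forskolin, and 14.8% and 7.78% with cAMP. The 26 tested members keeping under 10% had medians of -0.23 and 0.31 with ranges from -1.87 to 2.31 and from -2.12 to 3.55. With copies added, the 30 such members had medians of -0.97 and -0.62, with ranges from -1.37 to -0.18 and from -1.03 to 0.37. The wide range of the copy-rich genes was thus that of the genes taken alone.

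**Figure D3:**
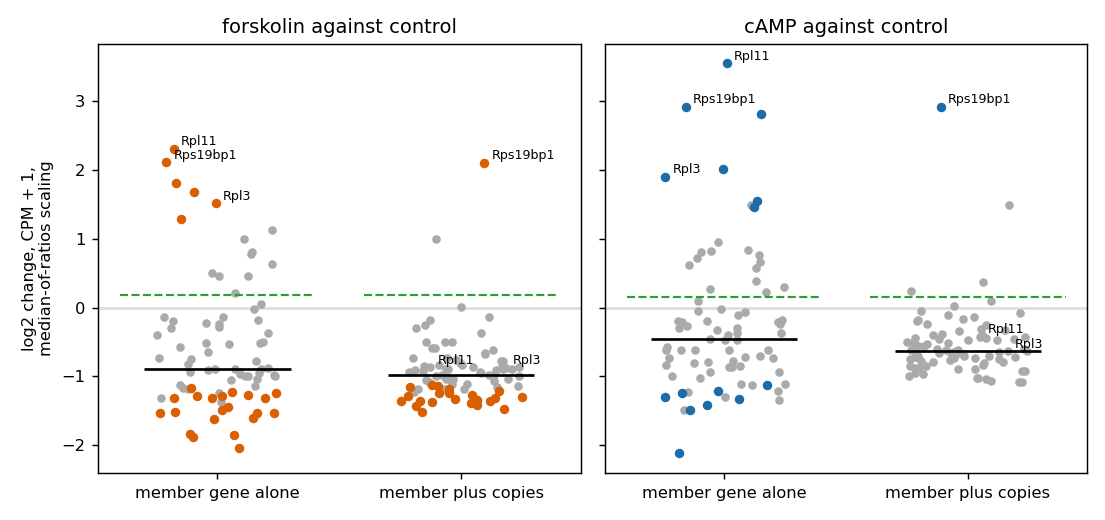
Log2 change against the control after median-of-ratios scaling, for tested members alone (79) and with copies (83); coloured points passed limma at an adjusted p of 0.05, black bars are the members' median and dashed green lines the median of all genes tested. Points at the genes alone spread from -2.04 to 2.31 with forskolin and -2.12 to 3.55 with cAMP, and with copies Rps19bp1 alone is called higher.

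All members called higher after scaling, apart from Rps19bp1, kept under 10% of their joint value at their own gene: Rpl3, Rpl11, Rpl13, Rpl27 and Rpl36a with forskolin, and Rpl3, Rpl11, Rpl23a, Rpl27, Rpl36a and Rps16 with cAMP. At Rpl3 and Rpl13 most of the value with forskolin lay outside protein_coding transcripts. Transcripts in this class held 95.2% of the Rpl3 value in the control, 28.6% and 19.0% with forskolin and 49.9% and 24.6% with cAMP. For Rpl13 they held 100% in the control, 22.1% and 33.4% with forskolin and 48.5% and 51.3% with cAMP. These control percentages rest on low values, 3.05 CPM for Rpl3 and 0.985 CPM for Rpl13. In both genes the control lay above all treated libraries. With protein_coding transcripts only, the as-deposited change of Rpl3 with forskolin was 1.41 (limma adjusted p = 0.0625), and that of Rpl11 was 0.91 (0.358) with forskolin and 1.45 (0.152) with cAMP. The change of Rpl3 with cAMP was then 2.33 (0.00419).

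**Figure D4:**
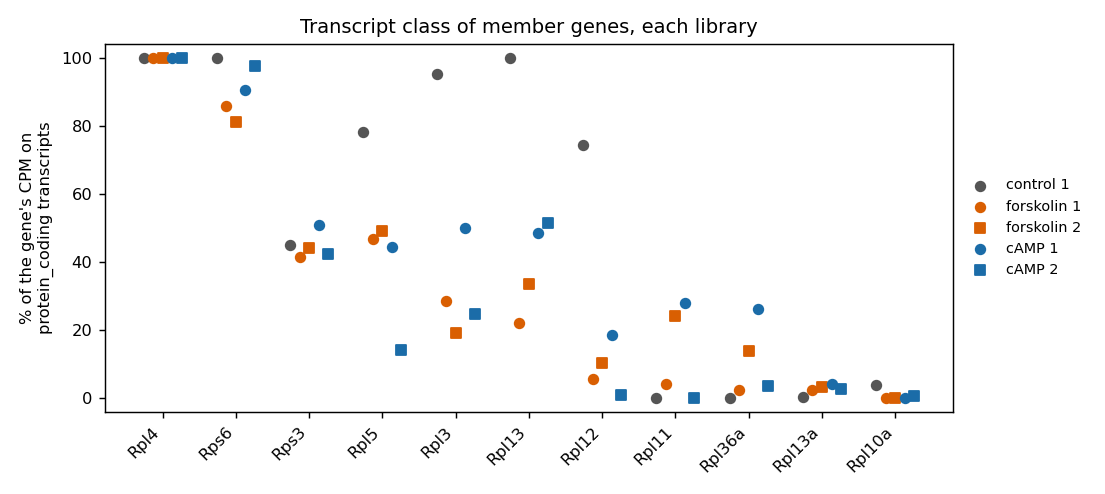
Percentage of each gene's CPM on transcripts annotated as protein_coding, for selected members in 5 libraries (grey control, orange forskolin, blue cAMP; circles replicate 1, squares replicate 2). Rpl4 is at 100% in every library. Rpl3, Rpl13 and Rpl12 are highest in the control, where they were at only 3.05, 0.985 and 2.41 CPM.

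Across members as a whole, protein_coding transcripts held 85% of the value in the control and 81.6% to 83.6% after treatment. Transcripts with a retained intron held 7.79% in the control, 11.2% and 9.07% with forskolin and 8.8% and 9.25% with cAMP. In other protein-coding nuclear genes the retained-intron share was 6.9% in the control and 6.09% to 7.33% after treatment. At 22 members less than 50% of the mean value lay on protein_coding transcripts. Rpl10a had 13.4% of its value on retained-intron transcripts in the control, where 82.9% lay on a class annotated for nonsense-mediated decay, and 81.1% to 98.2% in the treated libraries. Its control percentages rest on 4.50 CPM, against 22.8 to 55.6 CPM after treatment. Rpl13a, known for its role in silencing inflammatory mRNAs, had 39.8% to 72.1% on transcripts of that decay class, with the control inside that range. A gene sum of these members thus counts transcripts that do not code for the ribosomal protein.

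Forskolin against cAMP is the comparison with 2 libraries on either side. limma called 0 of 79 members in either direction, where 0.189% of all genes were called higher and 0.189% lower. With median-of-ratios scaling, at background shares of 0.0944% higher and 0.254% lower, the count was also 0. At an unadjusted p under 0.05, 4 members differed as deposited and 10 with scaling, with no share of all genes at that cut to set beside them. The median log2 change was -0.36, against 0.03 for all genes, and 69 of 79 members had a negative value. The share of all genes with a negative value is not given, and members read from the same libraries are not independent of one another. With copies added, 82 of 83 were negative, with 0 calls by limma (0.22% of all genes higher, 0.191% lower) and 0 with an unadjusted p under 0.05. Scaling as well gave 0 calls (0.154% higher and 0.382% lower among all genes) and 1 member with such a p. As deposited the members' median was 0.14 without cAMP 1, with 30 of 79 negative, where the median of all genes was 0.27. With median-of-ratios scaling the members' median without cAMP 1 was -0.15, with 52 of 79 negative, against 0.01 for all genes. For 27 of 79 members (34.2%) both cAMP libraries had a higher nuclear share than both forskolin libraries, against 17.5% of all tested nuclear genes. The reverse order held for 0 members, against 24.9%.

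The lowest change in this comparison was that of Rpl23a, a protein at the tunnel exit, at 5.90 and 10.3 CPM with forskolin and 27.4 and 22.2 CPM with cAMP. Its groups did not overlap, and the log2 change was -1.54 ± 0.48 (limma adjusted p = 0.17). Rpl11 followed at -1.27 ± 0.48 (0.4), also without overlap. With copies added the changes were -0.38 (0.992) for Rpl23a and -0.43 (0.991) for Rpl11. The highest change was that of Rpl13, at 20.9 and 13.2 CPM with forskolin and 20.6 and 3.29 CPM with cAMP. Its value of 0.87 ± 0.49 (0.791) came from overlapping groups and was -0.30 without cAMP 2. Rpl5 was at 0.82 ± 0.48 (0.821), and at -0.03 without that library. With copies added both signs turned, to -0.03 (0.998) for Rpl13 and -0.24 (0.995) for Rpl5.

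Rps19bp1, listed through its name, had no copy and lay wholly on a protein_coding transcript. It was at 0.0607 CPM in the control, 5.17 and 6.20 CPM with forskolin and 14 and 8.43 CPM with cAMP. It rose as deposited by 2.65 ± 0.60 and 3.49 ± 0.60 log2 units (limma adjusted p = 8.15e-05 and 3.4e-07), and by 2.11 (0.00425) and 2.92 (0.000306) after scaling. The control values of Rps19bp1 and Rpl11 lie near 0, so their log2(CPM + 1) changes depend on the added 1 and give no ratio of levels. Rpl7l1 was at 4.93 CPM in the control and 20.6 to 40.8 CPM after treatment.

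Among the paralogs, Rpl3l, the form of striated muscle, reached at most 0.361 CPM, and Rpl39l, the form of testis, at most 0.658 CPM. Rpl22l1 was at 12.6 CPM in the control, 28.1 and 10.1 CPM with forskolin and 30.7 and 14.4 CPM with cAMP. Its partner Rpl22 was at 59.6 CPM in the control, 115 and 94.4 CPM with forskolin and 189 and 92.9 CPM with cAMP, above the paralog in each library. Rpl36al was at 12.5 CPM in the control and 19.0 to 38.9 CPM after treatment. Below the filter and untested were these 2 low paralogs and Rpl19, Rpl35, Rpl36 and Rps13.

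Genes that share the members' translational control were read from a list of 20, with elongation factors, eIF3 subunits and other TOP mRNAs. With median-of-ratios scaling 8 of 20 were lower with forskolin (40%, against 7.39% of all genes) and 0 higher (14.4%), and the list's median was -0.84 log2 units. With cAMP 1 was lower (5%, against 7.78%) and 0 were higher (14.8%), with a median of -0.63. As deposited 9 were higher with forskolin (45%, against 66.3%) and 11 with cAMP (55%, against 65.1%). Eif3e, a subunit of the initiation factor that joins the small subunit, was at 41.8 CPM in the control, 74.9 and 33.5 CPM with forskolin and 69.8 and 66.9 CPM with cAMP. It was the one gene of the list lower in both scaled comparisons, at -1.82 (limma adjusted p = 0.00735) and -1.37 (0.0302). Eef1a1, which brings aminoacyl-tRNA to the ribosome, had scaled changes of -0.84 (0.279) and -0.70 (0.374). Tpt1, a classical TOP mRNA, fell by 1.38 after scaling with forskolin (0.03) and had a change of -1.0 (0.102) with cAMP.

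Of 40 nucleolar and RNA polymerase I genes, 4 were higher (10%, against 14.4% of all genes) and 2 lower (5%, against 7.39%) with forskolin after scaling, with a median of 0.41. With cAMP 6 were higher (15%, against 14.8%) and 0 lower (7.78%), with a median of 0.48. These shares were near or under those of all genes. As deposited 34 (85%, against 66.3%) and 36 (90%, against 65.1%) were higher. Nop56, a core protein of box C/D snoRNPs, was at 3.49 CPM in the control and 44.1 to 73.0 CPM after treatment, and rose after scaling by 1.78 (limma adjusted p = 0.00396) and 1.98 (0.0015). Ncl, which codes for nucleolin, had scaled changes of -0.33 (0.578) and -0.21 (0.742).

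Of 76 tested proteins of the mitochondrial ribosome, 7 were higher and 7 lower with forskolin after scaling (9.21% each, against 14.4% and 7.39% of all genes), with a median of -0.20. With cAMP 14 were higher (18.4%, against 14.8%) and 0 lower (7.78%), with a median of 0.36. As deposited 50 (65.8%, against 66.3%) and 66 (86.8%, against 65.1%) were higher. Of 22 tested growth control genes, 4 were higher with forskolin and 4 with cAMP after scaling (18.2% each, against 14.4% and 14.8%), and 1 was lower with forskolin (4.55%, against 7.39%). As deposited 20 (90.9%, against 66.3%) and 19 (86.4%, against 65.1%) were higher. Myc, which drives ribosome production, was at 3.10 CPM in the control, 64.9 and 49.0 CPM with forskolin and 56.0 and 34.8 CPM with cAMP. It rose after scaling by 1.97 (limma adjusted p = 0.00163) and 1.64 (0.00508). Larp1, which binds TOP mRNAs, was at 7.31 CPM in the control and 54.7 to 98.5 CPM after treatment, and rose by 1.31 with forskolin (0.0252), with a change of 1.06 (0.0609) for cAMP. Of 5 tested snoRNA host genes, 0 were higher (14.4% of all genes) or lower (7.39%) with forskolin after scaling by limma. With cAMP 1 was higher (20%, against 14.8%) and 0 were lower (7.78%). All 5 were higher in both comparisons as deposited (100%, against 66.3% and 65.1%). None of these lists had a gene called between forskolin and cAMP by limma in either scaling.

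**Figure D5:**
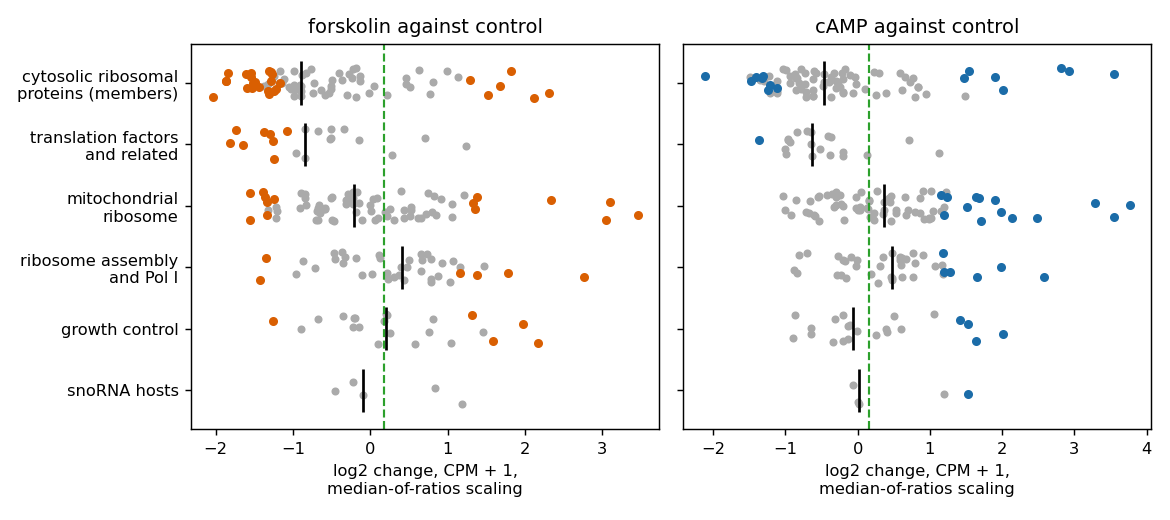
Log2 change against the control after median-of-ratios scaling for members and 5 related lists; each point is a gene, coloured where limma's adjusted p was under 0.05, black bars are list medians and the dashed green line is the median of all genes. Members and the translation factors have medians below 0 in both panels, while the ribosome assembly list has medians of 0.41 and 0.48.

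The start regions of the members, which the name rule did not use, shared features. RefSeq promoters (GRCm38.p6, 250 bases before to 50 after the start) were at hand for 64 members, 56 of them subunit or stalk genes. A run of at least 8 C or T on the sense strand within 30 bases of the start was found in 31 of 56 (55.4%), against 25.8% of 27025 genes. The motif CTCTTTC in the same window was found in 14.3% against 0.969%, and CTTTCC, which can overlap it, in 19.6% against 3.4%. Over the whole promoter and both strands, CCGGAAG, a core of ETS and GABP sites, was found in 42.9% against 9.93%, GGGCGG, the core of Sp1 sites, in 62.5% against 38.2%, and TATAAA in 10.7% against 15.7%. TGACGTCA, the full cAMP response element, was found in 5 of 56 (8.93%) against 2.03% of genes, and TGACG, its shorter form, which every such element contains, in 28 of 56 against 23.0% of genes. A match of letters is not a bound site.

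Promoter stretches with 40 bases before and 20 from the start onward are shown for members that differ in these runs, with the longest run of C and T near the start in capitals. For Rpl13 the capitals mark TGACGTCA, and Rplp0 has no run of 8:
Rpl35, chr2:39005112-39005171, minus strand: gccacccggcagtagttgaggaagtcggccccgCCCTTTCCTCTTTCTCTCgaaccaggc
Rpl28, chr7:4792925-4792984, plus strand: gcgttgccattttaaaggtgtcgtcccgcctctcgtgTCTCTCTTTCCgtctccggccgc
Rps6, chr4:86857348-86857407, minus strand: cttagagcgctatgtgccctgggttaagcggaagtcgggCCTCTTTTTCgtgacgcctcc
Rplp2, chr7:141447611-141447670, plus strand: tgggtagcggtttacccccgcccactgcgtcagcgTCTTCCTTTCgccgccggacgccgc
Rpl13, chr8:123102310-123102369, plus strand: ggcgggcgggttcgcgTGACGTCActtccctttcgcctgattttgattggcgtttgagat
Rplp0, chr5:115559427-115559486, plus strand: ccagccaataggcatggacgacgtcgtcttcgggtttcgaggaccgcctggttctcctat

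Rps6, Rplp2, Rpl28 and Rpl35 thus carry runs of 10, 10, 11 and 18 bases, and Rplp0 at most 7. The run of C and T that follows the element in Rpl13 is not in capitals. Rpl13, with the full cAMP response element, kept under 10% of its joint value at its own gene. With its copies the scaled changes of Rpl13 were -0.50 (limma adjusted p = 0.436) with forskolin and -0.46 (0.481) with cAMP. Rps9, whose promoter also holds the full element, has no listed copy, and its scaled changes are given above.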

How the data were processed

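RNA-seq values of 5 libraries were used: 1 control, 2 forskolin, 2 cAMP. Per the labels' protocols, RNA was extracted from trypsin-released epidermis and made into stranded mRNA libraries. The tools named are STAR, Partek and bcl2fastq 2.17, per the submitters' processing notes; genome build, annotation and the treatment of multiply matching reads are not given in the sources used here. Values deposited by the authors were CPM per transcript (59869 rows; the unit was inferred from column sums), with an offset of 1.94e-06 to 2.93e-06 in place of 0. Read depth is not given, so precision comes from replicate spread, which the fit pools over genes.

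Rows were summed per gene, without 3 that name no gene and hold at most 0.0679% of a library. Of 363 member rows, 344 were in GENCODE M21, and the 19 others took the median length of their gene's rows for levels per kb. Copies were listed pseudogenes or protein-coding genes matched by blastn 2.17.0 at 90% identity or more over at least 50% of the shorter sequence, and RefSeq gave the promoters. limma 3.58.1 (R 4.3.3), with an intensity trend, was fitted on log2(CPM + 1) to 13764 genes reaching 1 CPM in 2 or more libraries, 3 groups in one fit, 2-sided, with Benjamini-Hochberg adjustment at 0.05 over all genes. Changes of low genes are understated on this scale. Residual degrees of freedom were 2, with a prior of 360.2 as deposited and 15.72 after scaling. The SE and p-value of a gene thus rest mainly on the spread pooled over all genes. Median-of-ratios factors (0.317 for the control, 1.12 to 1.65 for treated libraries) came from 11512 genes. The fit was tested on simulated data.

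Members and lists were chosen with earlier results of these data known. Named members were, by rule, the 6 with the highest mean, the 3 highest and 3 lowest changes per comparison, the stalk, selected well-known members and paralog pairs; the text uses a part, and members named for copies or transcript classes were singled out after their values were seen. Results of some members are not reported here. The alternatives were 2 scalings, 2 pseudocounts, 2 filters, protein_coding transcripts only, robust empirical Bayes, leaving out each treated library, a replicate block and, chosen after seeing the data, adding copies and leaving out libraries under median-of-ratios scaling. Marker lists of T cells, Langerhans cells, melanocytes, endothelium, muscle, cornified layer and cycling cells were also summed. T cell, Langerhans cell, melanocyte, endothelium and muscle markers held at most 0.264% of the nuclear value per list in any library.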

Additional observations from a re-analysis of the deposited data

How the results depend on the processing

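The calls against the control depended on scaling, and no other choice turned the members' median against the control. Members higher with forskolin numbered 31 as deposited, 6 with median-of-ratios scaling, 7 with scaling to nuclear genes, 15 with no filter and 20 with protein_coding transcripts only. The shares of all genes called higher in these fits were 66.3%, 14.4%, 16.5%, 27.3% and 62.4%, and those of members 39.2%, 7.59%, 8.86%, 17.6% and 27%. Members lower numbered 0, 21 and 17 in the first 3 of these (0%, 26.6% and 21.5%, against 0.341%, 7.39% and 5.88% of all genes). The median was -0.90 and -0.78 in the scaled fits. With copies added, higher, lower and median were 1, 22 and -0.98 under median-of-ratios scaling and 1, 10 and -0.84 under nuclear scaling. The shares of members called higher and lower were 1.2% and 26.5% in the first of these fits, against 14.7% and 7.46% of all genes. In the second they were 1.2% and 12%, against 17.3% and 5.97%. For cAMP the 51 higher became 7 and 7 under these scalings and 20 with no filter (all genes 65.1%, 14.8%, 15.6% and 27.3%; members 64.6%, 8.86%, 8.86% and 23.5%). Lower members numbered 8 and 7 under these scalings (10.1% and 8.86%, against 7.78% and 6.97% of all genes), and the medians were -0.46 and -0.40. With copies added there was 1 higher under either scaling (1.2%, against 15.3% and 16.1% of all genes). Lower members then numbered 0 under median-of-ratios scaling (7.97% of all genes), and the medians were -0.63 and -0.55.

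Leaving out 1 treated library at a time gave 12 to 46 higher members for forskolin and 29 to 70 for cAMP. With median-of-ratios scaling it gave 3 to 6 higher and 7 to 26 lower for forskolin, and 6 to 8 higher and 2 to 14 lower for cAMP. All genes called higher then ranged from 39.6% to 76.9% as deposited for forskolin and 55.1% to 75.1% for cAMP. Between forskolin and cAMP the median ran from -0.83 to 0.14 as deposited and from -0.56 to -0.15 after scaling, and the scaled count of lower members from 0 to 1.

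Signs of single members turned too, given first for median-of-ratios and then for nuclear scaling. With forskolin these were Rplp0 (-1.18, -1.06), Rplp1 (-0.96, -0.83), Rplp2 (-0.24, -0.12), Rpl4 (-1.05, -0.93), Rpl5 (-1.32, -1.20), Rps9 (-0.88, -0.75), Rps3 (-0.98, -0.86) and Rps6 (-1.44, -1.32). With cAMP they were Rplp0 (-1.12, -1.06), Rplp1 (-0.30, -0.23), Rpl4 (-0.79, -0.72), Rps9 (-0.62, -0.55), Rps3 (-0.62, -0.55), Rps6 (-0.72, -0.65) and Rps23 (-1.35, -1.30). Single libraries turned Rps6 with forskolin (-0.01 without forskolin 1, 1.18 without forskolin 2), Rps23 (-0.09 without cAMP 1, 0.27 without cAMP 2) and Rpl5 (-1.0 without cAMP 1, 0.71 without cAMP 2) with cAMP. Between forskolin and cAMP, Rpl13 was at 2.04 without cAMP 1 and -0.30 without cAMP 2, and Rpl5 at 1.68 and -0.03. The cause was not tested.

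Deviations of same-numbered libraries had r = -0.05 over 13764 genes, so the numbers were not taken to pair samples. With a replicate block, forskolin against cAMP gave 0 higher, 0 lower and a median of -0.36. Of the other results for single members, 280 kept direction and side of the threshold, 27 no longer passed and 12 newly passed. The control is 1 library and was assumed to vary like the treated ones.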
